A study of Homo sapiens with 4 samples.

Results

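The genes described here encode 8 surface proteins that myoblasts use to adhere and to fuse: the fusogens MYMK and MYMX, the cadherins CDH2, CDH11 and CDH15, the immunoglobulin-type adhesion molecules NCAM1 and JAM3, and the receptor NEO1. They were chosen by symbol, and all 8 were found among the 39323 genes of the tables. RNA was sequenced from RD and JR1, established lines of rhabdomyosarcoma, a childhood tumor of muscle lineage, of the subtype without a PAX3/7-FOXO1 gene fusion. Each line had been infected with a lentivirus that expressed either an shRNA against SKP2 (shSKP2.2, titled shSKP2 in the sample labels) or a non-targeting shRNA (shSCR), from a vector that carries puromycin resistance, and was grown in medium with serum. All 4 groups therefore carried a lentiviral hairpin vector, and none was untransduced. SKP2 was targeted by this single hairpin in both lines, and effects of the hairpin apart from SKP2 were not tested. There was 1 library per line and condition, so no difference within a line or between the lines has a replicate check. The p-values below come from a single fit over both lines, in which the lines were the only replicates of the hairpin.

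Muscle fibers form when single myoblasts align, adhere and merge their membranes. MYMK (myomaker) is a membrane protein with several transmembrane segments that is needed on both cells for their membranes to begin to mix, and MYMX (myomixer, also called myomerger) is a micropeptide that completes the opening of the fusion pore. Both genes are classical targets of the myogenic factors MYOD and MYOG. Before fusion the cells are held together by cadherins, which bind their like on the next cell in the presence of calcium, by immunoglobulin-type molecules, and by receptor assemblies in which NEO1 (neogenin) works beside CDON and BOC.

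Expression is given as TPM, the transcripts of a gene per 1000000 transcripts, a measure adjusted for transcript length that the authors computed and that has the same total in each library, which leaves the depth of a library unknown. A change is log2 of the ratio of TPM + 1, and the 12985 genes whose TPM averaged 1 or more across the libraries were examined further, among them all 8 described here. They are called tested genes below. A gene is said to have risen or fallen where its change was at least 1 in either direction, a 2-fold difference in TPM + 1, and otherwise only its values are given. SKP2, the targeted transcript, fell in RD from 92.8 to 7.40 TPM and in JR1 from 46.5 to 2.72 TPM. Short structural RNAs such as 7SL and 7SK took 58.6% to 72.1% of the TPM, more in shSKP2.2 than in shSCR of each line, so that other genes had less of the total. Over all tested genes the change had a median of -0.27 (RD) and -0.21 (JR1), which became 0.12 and 0.01 after those genes were removed and the rest rescaled. The filter was applied anew to the rescaled values, so medians and shares of tested genes after the removal are over 15218 genes. Rises were 12.8% of all called genes in RD and 16.4% in JR1 as deposited, 37.3% and 35.3% relative to the median, and 56.0% and 39.6% after the removal. Of 6 genes listed for the muscle lineage 5 reached 1 TPM in some library (DES, MYOD1, MYOG, CHRNA1 and VIM). VIM is not specific to muscle, and MYF5 was listed at 0 in all 4 libraries. The summed TPM of 5 markers each of epithelial cells, leukocytes and neurons was at most 3.02 in any library. That of the endothelial list went in RD from 5.31 to 0.760 TPM and in JR1 from 2.42 to 0.180 TPM, with TIE1 at 5.03 and 0.310 TPM in RD and at 2.14 and 0.04 TPM in JR1, while PECAM1, CDH5 and KDR had at most 0.05 TPM. The part of TIE1-bearing cells in the results was not tested.

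**Figure D1:**
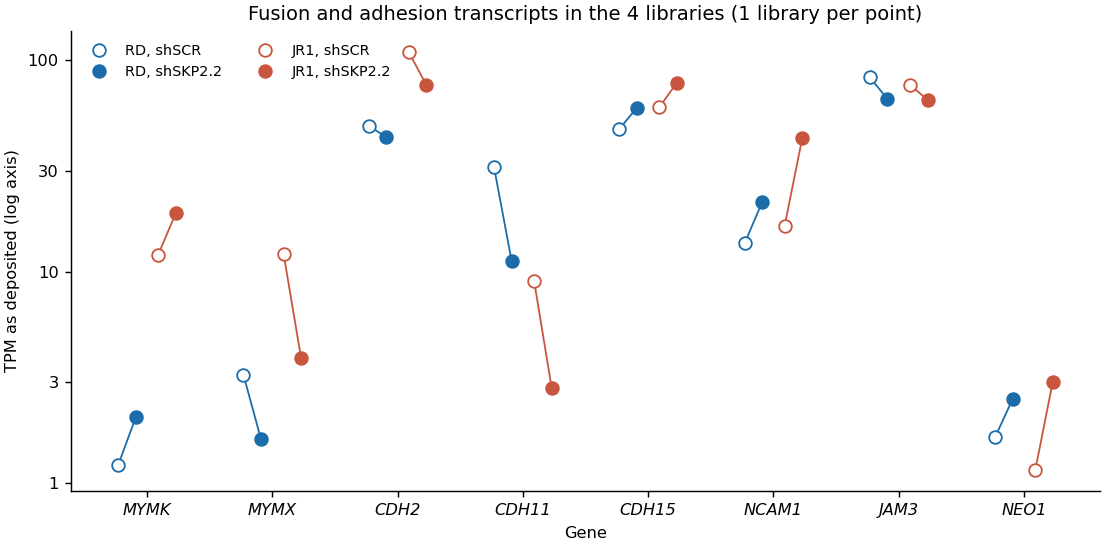
Levels of the 8 transcripts as deposited, in TPM on a log axis, with 1 library per point. Open points are shSCR and filled points shSKP2.2, in blue for RD and red for JR1. MYMK, CDH15, NCAM1 and NEO1 are higher with shSKP2.2 in both lines, and MYMX, CDH2, CDH11 and JAM3 are lower.

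The fusogens lay in opposite directions after SKP2 depletion, MYMK higher and MYMX lower, in both lines. In bulk RNA the number of cells that carry a transcript and the amount in each cell cannot be told apart. Gene spans are those of the tables, on GRCh38. MYMK, on chromosome 9 from base 133514586 to base 133524959 with 5 exons in its canonical transcript, had 1.22 TPM (RD shSCR), 2.05 (RD shSKP2.2), 12.0 (JR1 shSCR) and 18.9 (JR1 shSKP2.2). Its level was higher with shSKP2.2 in each line and higher in JR1 than in RD under either hairpin. The changes of 0.46 in RD and 0.61 in JR1 were under the limit as deposited, and were 0.95 and 0.89 after removal of structural RNA genes. MYMX, on chromosome 6 from base 44192365 to base 44218236, had 3.26 TPM (RD shSCR), 1.62 (RD shSKP2.2), 12.2 (JR1 shSCR) and 3.92 (JR1 shSKP2.2). It was therefore lower with shSKP2.2 in each line, and the lowest library was that of RD shSKP2.2. MYMX fell in JR1 with a change of -1.42, whereas the -0.70 of RD was under the limit although the TPM differed 2.01-fold, since 1 is added to each value, and the difference of 0.72 between the lines was not tested. Removal of structural RNA genes left the changes at -0.51 in RD and -1.31 in JR1. The span given for MYMX covers 25872 bases, and its canonical GENCODE transcript has 2 exons with 828 bases, of which 252 are coding.

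Ratios within a library do not depend on what other genes take of the total. With shSCR, MYMX had 2.67 times the TPM of MYMK in RD and 1.01 times in JR1. With shSKP2.2 the ratio was 0.790 in RD and 0.208 in JR1. In JR1 MYMK thus stood above MYMX, at 18.9 against 3.92 TPM. In RD the 2.05 TPM of MYMK and the 1.62 TPM of MYMX cannot be ordered without replicates or read counts. Against MYOG, the myogenic factor of early differentiation, MYMK had ratios of 0.0386 and 0.0351 in RD and of 0.223 and 0.176 in JR1 (shSCR and shSKP2.2). The ratio of MYMX to MYOG went from 0.103 to 0.0277 in RD and from 0.225 to 0.0366 in JR1. MYOG itself had 31.6 and 58.4 TPM in RD and 54.0 and 107 TPM in JR1.

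**Figure D2:**
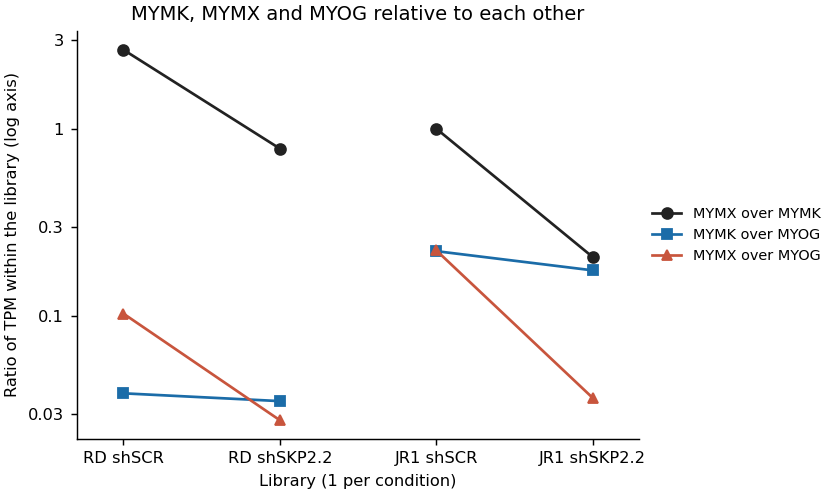
Ratios of TPM within each library on a log axis, 1 library per point, with lines that join shSCR and shSKP2.2 of a line. MYMX over MYMK (black) and MYMX over MYOG (red) are lower with shSKP2.2 in both lines, while MYMK over MYOG (blue) goes from 0.0386 to 0.0351 in RD and from 0.223 to 0.176 in JR1.

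Among the cadherins CDH11 fell in both lines, CDH15 was higher in both, and CDH2 lay between them. CDH11, a cadherin of mesenchymal cells, lies on chromosome 16 from base 64943753 to base 65126112. It had 31.1 TPM (RD shSCR), 11.3 (RD shSKP2.2), 9.03 (JR1 shSCR) and 2.83 (JR1 shSKP2.2). Its change was -1.39 in each line as deposited, and -1.02 in RD and -1.33 in JR1 after removal of structural RNA genes. CDH11 was the only one of the 8 to pass the limit in both lines as deposited, where 4.79% of all tested genes fell and 0.539% rose in both.

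CDH15, or M-cadherin, is the cadherin of satellite cells and myoblasts and lies on the same chromosome from base 89171748 to base 89195492. It had 47.1 TPM (RD shSCR), 59.4 (RD shSKP2.2), 59.9 (JR1 shSCR) and 78.1 (JR1 shSKP2.2). These are changes of 0.33 in RD and 0.38 in JR1, which the centring on the median put at 0.60 and 0.59. CDH2, or N-cadherin, lies on chromosome 18 from base 27932878 to base 28177130 and had 48.9 TPM (RD shSCR), 43.1 (RD shSKP2.2), 109 (JR1 shSCR) and 76.0 (JR1 shSKP2.2). It was lower with shSKP2.2 in JR1 under every scaling, with a change of -0.51 as deposited and -0.25 after removal of structural RNA genes. In RD its change was -0.18 as deposited and turned to 0.09 relative to the median and to 0.24 after that removal, so no direction can be given for it there.

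CDH15 took a larger share of the cadherin transcripts with shSKP2.2 in both lines. Of 23 CDH genes 6 exceeded 10 TPM in some library: CDH2, CDH15, CDH13 (a cadherin held by a lipid anchor), CDH24, CDH11 and CDH4. In RD CDH15 made up 22.6% of the summed CDH TPM with shSCR and 32.3% with shSKP2.2, and in JR1 25.8% and 36.1%. CDH11 went from 14.9% to 6.13% in RD and from 3.90% to 1.31% in JR1. The share of CDH2 was 23.4% in both RD libraries but 46.9% and 35.1% in JR1. In RD the TPM of CDH15 was 0.964 times that of CDH2 with shSCR and 1.38 times with shSKP2.2, and in JR1 0.550 and 1.03 times. CDH1, the cadherin of epithelia, had at most 0.03 TPM in any library.

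**Figure D3:**
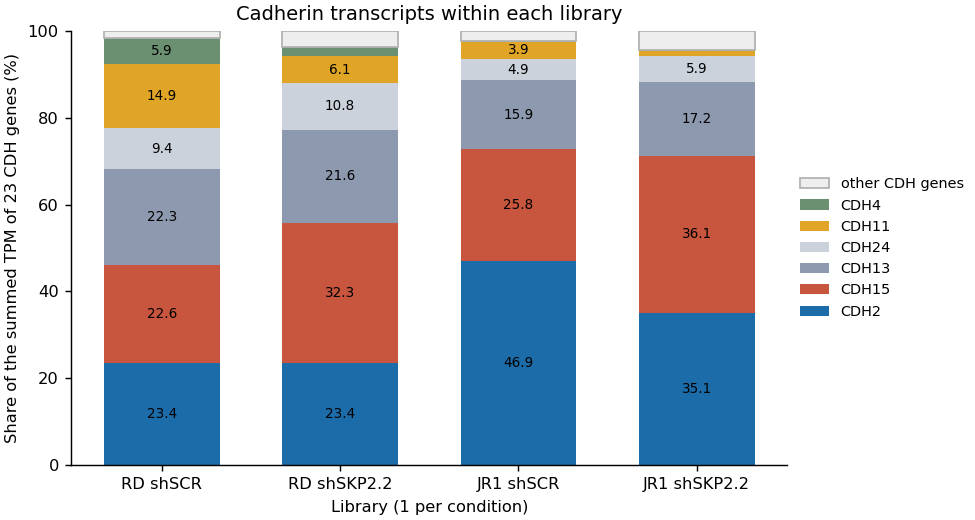
Share of each cadherin in the summed TPM of 23 CDH genes, in percent, as stacked bars with 1 library per bar. CDH15 (red) is larger and CDH11 (yellow) smaller with shSKP2.2 in both lines, and CDH2 (blue) is 46.9% and 35.1% in JR1 against 23.4% in each RD library.

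With shSKP2.2 the TPM of NCAM1 and NEO1 were higher in both lines, NEO1 at low levels, and JAM3 followed the median of all genes. NCAM1, an adhesion molecule of embryonic and regenerating muscle fibers, lies on chromosome 11 from base 112961420 to base 113278436 with 20 exons. It had 13.6 TPM (RD shSCR), 21.3 (RD shSKP2.2), 16.5 (JR1 shSCR) and 42.7 (JR1 shSKP2.2). Both shSKP2.2 libraries lay above both shSCR libraries. NCAM1 rose in JR1 with a change of 1.32, a ratio of 2.59 between the TPM. The 0.61 of RD was under the limit and passed it, at 1.05, when structural RNA genes were removed. Its antisense gene NCAM1-AS1, which covers 8896 of its bases, had at most 0.09 TPM.

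NEO1, a receptor for netrins and repulsive guidance molecules, lies on chromosome 15 from base 73051715 to base 73305206. It was the lowest of the 8 in JR1 shSCR, at 1.16 TPM, and had 3.03 TPM with shSKP2.2 in that line, and 1.66 and 2.51 TPM in RD (shSCR and shSKP2.2). Its changes of 0.40 in RD and 0.90 in JR1 were under the limit. They are understated by the added 1 at such levels, and with 0.1 TPM added they were 0.57 and 1.31. Counting error at such levels is unknown without read counts, so the RD values in particular cannot be ordered with certainty. Relative to its partners in the receptor assembly NEO1 was higher with shSKP2.2: its TPM was 0.0458 and 0.0873 of that of CDON in RD, and 0.0382 and 0.127 in JR1.

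JAM3, a junctional molecule of the immunoglobulin type, lies on chromosome 11 from base 134069072 to base 134152001. It had 82.7 TPM (RD shSCR), 65.4 (RD shSKP2.2), 76.1 (JR1 shSCR) and 64.8 (JR1 shSKP2.2). Its changes of -0.33 in RD and -0.23 in JR1 were -0.06 and -0.02 relative to the median, and turned to 0.08 and 0.03 when structural RNA genes were removed. Its 3′ end overlaps 1889 bases of NCAPD3 on the other strand, which had 18.7 and 12.0 TPM in RD and 8.68 and 7.45 TPM in JR1, and whether strand was used in the counting is not given in the sources used here.

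As deposited, 0 of the 8 genes rose and 1 fell in RD, against 1.08% and 7.37% of all tested genes. In JR1 1 rose (NCAM1) and 2 fell (CDH11 and MYMX), against 1.78% and 9.05%. The median change of the 8 was 0.07 in each line, beside the medians of -0.27 and -0.21 over all tested genes. In each line 4 of the 8 were higher and 4 lower as deposited, the same 4 in both, where 17.0% of all tested genes were higher in both lines and 61.1% lower in both. After removal of structural RNA genes NCAM1 rose and CDH11 fell in RD, where 4.40% of tested genes rose and 3.46% fell. In JR1 NCAM1 and NEO1 rose and CDH11 and MYMX fell, against 4.91% and 7.48%. Among 12861 tested genes without structural RNAs, ranked by TPM within a library, the shift of a gene does not depend on scaling. NCAM1 moved from percentile 56.4 to 76.8 in RD and from 67.8 to 90.8 in JR1, and MYMK from 3.90 to 13.3 and from 58.2 to 76.5. CDH11 moved from percentile 79.6 to 58.4 in RD and from 49.6 to 23.9 in JR1, and MYMX from 18.1 to 9.40 and from 58.5 to 31.3. JAM3 was at percentiles 93.6 and 94.0 in RD and 94.2 and 94.7 in JR1.

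The hairpin effect over both lines was also fitted in limma on log2(TPM + 1) with the line as a block, which left 1 residual degree of freedom and took most of its estimate of spread from other genes. By its adjusted p-values MYMK was higher with shSKP2.2 by 0.53 (adjusted p = 0.0367) and NCAM1 by 0.97 (adjusted p = 0.0127). In the same limma fit CDH11 was lower, at -1.39 (adjusted p = 0.00168), and MYMX at -1.06 (adjusted p = 0.0128). The 2 higher and 2 lower genes stand against 3.84% and 26.6% of all tested genes at an adjusted p under 0.05. NEO1, CDH15, CDH2 and JAM3 missed that threshold as deposited, with limma adjusted p-values of 0.0567, 0.0743, 0.110 and 0.136. After removal of structural RNA genes 6 of the 8 passed it, against 9.71% of tested genes higher and 9.27% lower. CDH15 and NEO1 then joined, at 0.70 and 1.14 (limma adjusted p = 0.0105 and 0.0230), whereas CDH2 was at -0.01 with a 95% interval from -0.35 to 0.34 and JAM3 at 0.06 with an interval from -0.21 to 0.32. The fit treats the lines as replicates of 1 effect, and cultures of 1 line were not compared.

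**Figure D4:**
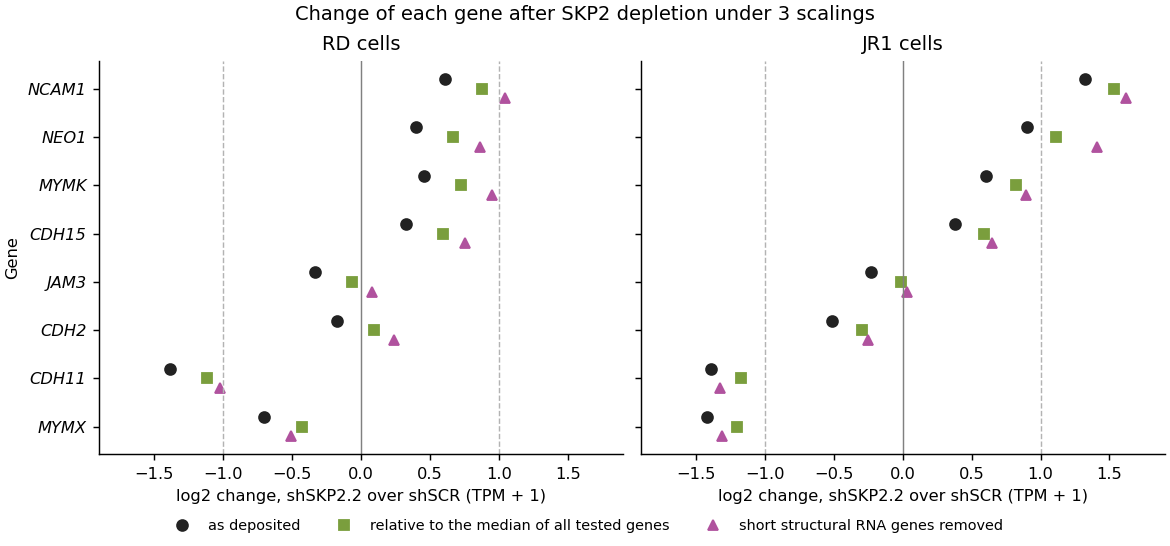
Change of each gene after SKP2 depletion in RD (left) and JR1 (right), as log2 of the ratio of TPM + 1, under 3 scalings, with dashed lines at the limit of 1 in either direction. NCAM1, NEO1, MYMK and CDH15 lie above 0 and CDH11 and MYMX below 0 in both lines under each scaling, while JAM3 in both lines and CDH2 in RD cross 0.

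The lines differed in which of these genes they expressed. In shSCR cells CDH11 was higher in RD by 1.68, and MYMK, MYMX and CDH2 were lower in RD, at -2.55, -1.63 and -1.14. Thus 1 gene was higher and 3 were lower by at least 1, against 6.50% and 3.45% of all tested genes. With shSKP2.2 CDH11 was again higher in RD by 1.68 and MYMK lower, at -2.70, against 5.39% and 2.70% of all tested genes. MYMX, NCAM1 and CDH2 were then at -0.91, -0.97 and -0.80. Relative to the median over tested genes MYMX and NCAM1 passed the limit, at -1.08 and -1.14, and CDH2 did not, at -0.98. Genes higher in RD were 65.3% of all called genes with shSCR and 66.6% with shSKP2.2 as deposited, 43.0% and 48.9% relative to the median, and 40.3% and 55.9% after removal of structural RNA genes. These comparisons use the same libraries as those of the hairpins and are not independent of them. In TPM the order also differed. JAM3 was the highest of the 8 in both RD libraries, CDH2 in JR1 shSCR and CDH15 in JR1 shSKP2.2. CDH2 and CDH15 were 1.04-fold apart in RD shSCR and 1.03-fold in JR1 shSKP2.2, and without replicates such neighbours cannot be ordered. CDH15, JAM3 and NEO1 differed between the lines by at most 0.39 in either condition as deposited. JAM3, at 0.12 and 0.01 (shSCR and shSKP2.2), turned to -0.11 and -0.16 relative to the median.

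Genes with the most similar pattern were found by the root mean square distance of log2(TPM + 1), centred on its mean over the 4 libraries, among 12860 other tested genes. With 4 values a close match is common for a gene that hardly changes, and JAM3 had 1113 genes within a distance of 0.1. MYMK had none within 0.1, and its nearest was ZNF385B at 0.13, with 0.07 and 0.310 TPM in RD and 4.27 and 9.15 TPM in JR1 (shSCR and shSKP2.2). IRX6 and LINC02154 followed. The nearest to MYMX were SQOR, AGAP2 and FBN2, and those to CDH11 were TYMS, TROAP and SPC24, at 0.04 to 0.05. TYMS, which makes thymidylate for DNA synthesis, had 111 and 41.5 TPM in RD and 32.1 and 12.6 TPM in JR1. The nearest to NCAM1 were SLC40A1, LMOD3 and TMOD1, of which LMOD3 and TMOD1 cap and organise thin filaments of muscle. CDH2 had LOC102723996, EMSLR and EMILIN2, CDH15 had ANKRD10, FRY and LINC00472, JAM3 had SEC24A, NME2 and NSF, and NEO1 had ZNF594, NREP and RTN4R.

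A list of 92 genes of myoblast fusion and adhesion, which includes the 8, gave the setting, and 76 of them were tested. As deposited 2 rose and 11 fell in RD, against the shares of 1.08% and 7.37% over all tested genes. JR1 had 3 rises and 14 falls, against 1.78% and 9.05%. The median change was -0.37 in each line, beside -0.27 and -0.21 for all tested genes, and turned to 0.04 in RD and became -0.16 in JR1 after removal of structural RNA genes. In both lines 2 genes rose and 9 fell, where 0.539% and 4.79% of all tested genes did so. Without the 8, 68 genes were tested, of which 12 passed the limit in RD and 14 in JR1, 2 upward in each line. The median change of these 68 was -0.38 in RD and -0.40 in JR1, against 0.07 for the 8, and turned to 0.03 in RD and became -0.17 in JR1 after that removal, against 0.49 and 0.34 for the 8. With the removal 81 genes of the list were tested. HJV, NCAM1, DYSF and ARPC3 then rose in both lines, and CDH11, L1CAM, TMEM30A and ITGA7 fell in both. Under that removal 4.40% of all tested genes rose and 3.46% fell in RD, and 4.91% and 7.48% in JR1. The share past the limit in both lines at once was not counted.

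Of 10 tested genes in the cadherin and catenin group, CDH11 alone fell in both lines, where 4.79% of all tested genes did. The catenins tie cadherins to actin. CTNNA1 fell in JR1 as deposited, from 87.1 to 38.4 TPM (-1.16), and was at -0.93 in RD. In JR1 it was under the limit relative to the median and after removal of structural RNA genes, at -0.95 and -0.91. CTNNB1, or beta-catenin, had 127 and 79.1 TPM in RD and 90.2 and 54.4 TPM in JR1, and CTNND1, which stabilises cadherins at the surface, had 54.2 and 55.7 TPM in RD and 42.7 and 48.1 TPM in JR1.

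Of 10 tested genes in the neogenin group, HJV rose in both lines and SPAG9 fell in both as deposited. Over all tested genes 0.539% rose and 4.79% fell in both. HJV (hemojuvelin), a repulsive guidance molecule of muscle that binds NEO1, went in RD from 0.400 to 2.39 TPM and in JR1 from 2.99 to 8.48 TPM, changes of 1.28 and 1.25. SPAG9, a scaffold of the JNK and p38 kinases, went in RD from 38.3 to 12.0 TPM and in JR1 from 32.7 to 14.8 TPM. Its change of -1.10 in JR1 came under the limit relative to the median and after removal of structural RNA genes, at -0.88 and -0.87. BOC, a co-receptor beside CDON, fell in JR1 from 33.9 to 10.9 TPM (-1.55) and was at -0.89 in RD, whereas CDON was at -0.32 and -0.33 and turned to 0.09 in RD after removal of structural RNA genes.

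Of 7 tested immunoglobulin-type genes, NCAM1 rose in JR1, where 1.78% of all tested genes did. L1CAM and MCAM fell in both lines as deposited, where 4.79% of all tested genes did. L1CAM, a neural adhesion molecule, went in RD from 26.5 to 6.67 TPM and in JR1 from 27.2 to 8.98 TPM. MCAM, an adhesion molecule of vessels and progenitor cells, went in RD from 23.2 to 9.04 TPM and in JR1 from 46.8 to 13.2 TPM. Its change in RD was -1.27 as deposited and -0.92, under the limit, after removal of structural RNA genes. ST8SIA4, which adds polysialic acid to NCAM1, had 11.1 and 8.58 TPM in RD and 7.70 and 8.29 TPM in JR1, and its change of -0.33 in RD turned to 0.05 after removal of structural RNA genes. The other such enzyme, ST8SIA2, had at most 0.01 TPM.

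Of 11 tested genes of membrane remodelling TMEM30A fell in both lines, where 4.79% of all tested genes did. It went in RD from 22.7 to 7.53 TPM and in JR1 from 25.3 to 5.84 TPM. It encodes the partner subunit of the flippases that keep phosphatidylserine on the inner leaflet. DYSF and MYOF, ferlins of membrane repair and fusion, stood on opposite sides. DYSF had changes of 0.66 in RD and 0.74 in JR1 and passed the limit after removal of structural RNA genes, at 1.10 and 1.01. MYOF was at -0.79 and -0.90 as deposited, and at -0.38 and -0.65 after that removal.

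All 20 genes of actin remodelling were tested, and ARPC3 was the one that rose in both lines, where 0.539% of all tested genes did. It is a subunit of the ARP2/3 complex, which branches actin filaments. ARPC3 went in RD from 33.9 to 70.3 TPM and in JR1 from 25.1 to 77.6 TPM. ARPC2, ACTR2 and ACTR3 of the same complex had changes between -0.39 and -0.09 in both lines, which turned to between 0.03 and 0.18 after removal of structural RNA genes. As deposited 0 of the 20 fell, where 7.37% (RD) and 9.05% (JR1) of all tested genes did. Their median change of -0.37 (RD) and -0.18 (JR1) turned to 0.05 and 0.06 after removal of structural RNA genes, and in JR1 to 0.03 relative to the median.

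In the group of tetraspanins, integrins and surface proteases all 11 tested genes were lower in both lines as deposited, with medians of -0.87 and -0.80, where 61.1% of all tested genes were lower in both. After removal of structural RNA genes 9 of the 11 were lower in both, where 31.3% of tested genes were. As deposited CD9, ITGA3, ITGA7 and FERMT2 fell in both, where 4.79% of all tested genes did. After that removal, or relative to the median, ITGA7 alone passed the limit in both. After the removal 3.46% of tested genes fell in RD and 7.48% in JR1, and relative to the median 3.53% and 5.47%. The share that fell in both lines at once was not counted for these settings. ITGA7, the laminin receptor subunit of muscle, went in RD from 13.0 to 4.31 TPM and in JR1 from 50.9 to 13.3 TPM. CD9, a tetraspanin of membrane fusion, went in RD from 14.4 to 5.54 TPM and in JR1 from 9.27 to 3.81 TPM. Of 7 tested secreted signals and regulators 0 passed the limit in RD, against 1.08% of all tested genes upward and 7.37% downward. PTGER4, a prostaglandin receptor, was lowest there at -0.80. CXCR4, a chemokine receptor, and NFATC2, a transcription factor of myotube growth, fell in JR1 with changes of -1.23 and -1.40. In JR1 9.05% of all tested genes fell. MSTN (myostatin), a secreted inhibitor of muscle growth, had the highest change of the 7 in both lines, at 0.24 and 0.56.

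**Figure D5:**
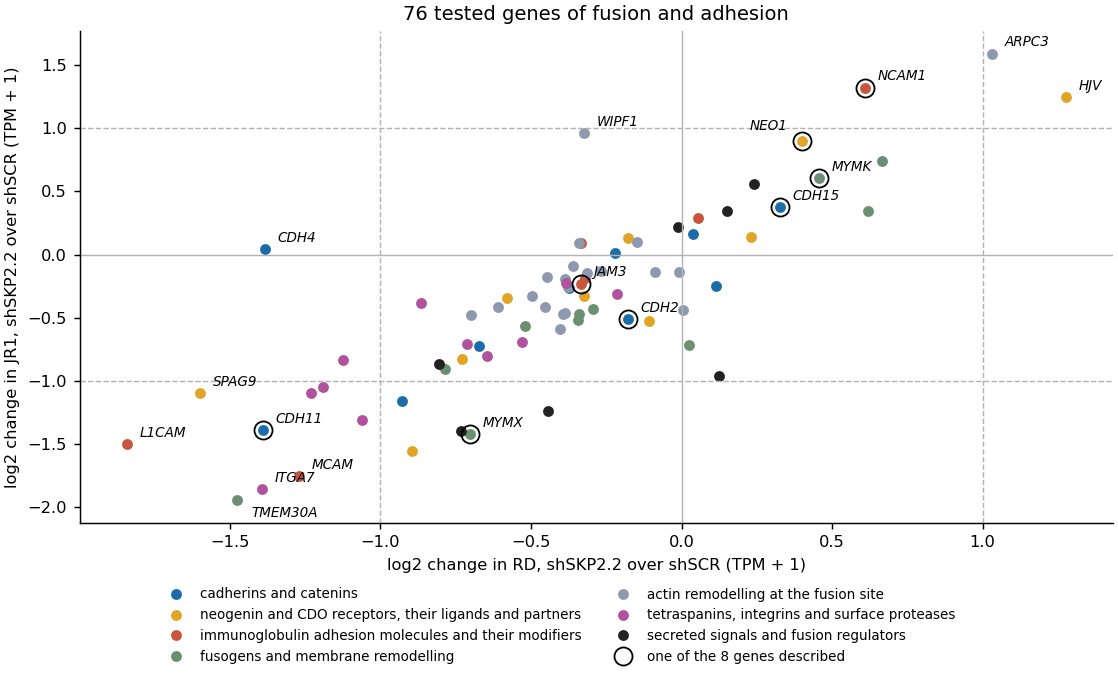
Change after SKP2 depletion of 76 tested genes of fusion and adhesion, in RD (horizontal) and JR1 (vertical), as log2 of the ratio of TPM + 1, colored by group, with dashed lines at 1 and -1. The 8 genes described are ringed. HJV and ARPC3 lie beyond the limit in the upper right and CDH11 lies among 9 genes beyond it in the lower left.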

How the data were processed

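The authors made poly-A selected, directional libraries from column-purified RNA, read them as pairs of 150 bases, used STAR 2.7.9a for alignment (GRCh38) and deposited TPM per gene from RSEM 1.3.2, with 2 decimals. TPM keep no read counts, so depth and counting error are unknown. The TPM were used as deposited, and groups came from the sample titles. Changes, limits and counts are defined in the results. Alternatives were 0.1 TPM added in place of 1, centring on the median of all tested genes, removal of 1069 short structural RNA genes by symbol (with RMRP, RPPH1 and transfer RNA genes) and rescaling, no filter on low levels, a filter at a mean of 5 TPM, a 1.5-fold limit, and, chosen after seeing the data, rescaling within protein-coding genes and a limma fit over both lines with the line as a block (trended prior, Benjamini-Hochberg adjustment).

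The 8 genes and all lists were chosen with earlier results of these data known. Named genes are the 8, SKP2, the 3 nearest genes of each, CDH genes above 10 TPM, the lineage markers, and in each group of the wider list the genes past the limit in both lines or the highest or lowest. BOC, CTNNA1, CTNNB1, CTNND1, CDON, ST8SIA4, ST8SIA2, DYSF, MYOF, ARPC2, ACTR2, ACTR3, CXCR4, WIPF1, CXCL12, NCAPD3, NCAM1-AS1 and CDH1 were named after their values were seen. Exon counts and overlaps came from GENCODE release 44. Sequence upstream of the genes is not reported here. Methods were tested on simulated data. Python 3.11.15, numpy 2.4.6, pandas 2.3.3, matplotlib 3.10.9, R 4.3.3 and limma 3.58.1 were used.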

Additional observations from a re-analysis of the deposited data

Results flagged for a closer look

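Each of 3 genes of the wider list had changes of opposite sign in the lines as deposited, at least 1 apart on the log2 scale. Of these changes CDH4 in RD passed the 2-fold limit and the others were smaller. With 1 library per condition the differences were not tested. WIPF1, which binds the actin regulator WASP, had 12.0 and 9.41 TPM in RD (shSCR and shSKP2.2) and 13.2 and 26.6 TPM in JR1, changes of -0.32 and 0.96 and a difference of -1.29. After removal of structural RNA genes its changes were 0.07 and 1.26. CDH4, or R-cadherin, had 12.3 and 4.11 TPM in RD but 0.26 and 0.3 TPM in JR1, changes of -1.38 and 0.05 that differed by -1.43. CXCL12, a chemokine, was listed at 0 in RD shSCR and had 0.09 TPM in RD shSKP2.2, against 6.61 and 2.91 TPM in JR1, and its changes of 0.12 and -0.96 differed by 1.09.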

How the results depend on the processing

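Counting error at low TPM is unknown without read counts, and no difference within a line has a replicate check. As deposited 1 of the 8 passed the 2-fold limit in both lines. With the line as a block in limma, a paired comparison of the hairpins chosen after seeing the data, 4 passed an adjusted p under 0.05, and 6 after removal of structural RNA genes. CDH2 in RD turned to 0.092 relative to the median, and to 0.24 after removal of structural RNA genes or within protein-coding genes. JAM3 turned to 0.083 and 0.089 in RD and to 0.032 and 0.035 in JR1 under the last pair of settings. Between the lines JAM3 turned to -0.11, -0.19 and -0.19 with shSCR and to -0.16, -0.14 and -0.13 with shSKP2.2 under all 3 settings. With a minimum mean of 5 TPM, which left out NEO1, the median of the other 7 genes became -0.18 (RD) and -0.23 (JR1).

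The number of the 8 past the limit between the lines with shSKP2.2 was 2, and 4 with 0.1 TPM added, relative to the median, after removal of structural RNA genes or within protein-coding genes. With 0.1 TPM added 9.18% of all tested genes were higher in RD and 3.74% lower, and relative to the median 3.54% and 3.70%. The shares were 6.26% and 4.95% after the removal and 5.86% and 4.93% within protein-coding genes, against 5.39% and 2.70% as deposited. In RD the number of the 8 was 1 after depletion, and 2 after removal of structural RNA genes or within protein-coding genes. Of all genes tested under these settings 4.40% rose and 3.46% fell in RD after the removal, and 3.74% and 3.58% within protein-coding genes. At 1.5-fold the number of the 8 was 3 in RD, 5 in JR1 (from 3) and 5 between the lines with shSKP2.2. For the wider list the 1.5-fold counts were 29 in RD (from 13), 32 in JR1 (from 17) and 23 between the lines with shSKP2.2 (from 14). A minimum mean of 5 TPM gave 9 between the lines with shSCR (from 15) and 9 with shSKP2.2. With that filter 6.49% of tested genes were higher in RD and 2.87% lower with shSCR, and 5.48% and 2.31% with shSKP2.2. In these counts the limit or the filter itself set the number; elsewhere the cause was not tested.

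As shares of CDH2, CDH11 and CDH15 alone, CDH2 had 38.5%, 37.9%, 61.2% and 48.4% in RD shSCR, RD shSKP2.2, JR1 shSCR and JR1 shSKP2.2. CDH11 had 24.5%, 9.90%, 5.08% and 1.80%, and CDH15 had 37.1%, 52.2%, 33.7% and 49.8% in the same order.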
